A study of Mus musculus with 5 samples.

Results

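Genes that read higher, or lower, in fibroblasts given 3 gonadal transcription factors than in both the fibroblasts they came from and the Leydig cells they are named for were examined on 5 single-colour mouse microarrays. The iLC group, labelled induced Leydig-like cells, is 2 arrays of mouse embryonic fibroblasts from embryos of 13.5 days post coitus, transduced with lentivirus carrying Dmrt1, Gata4 and Nr5a1 (12 hours of virus exposure) and moved to a medium with 50 ng/ml of IGF and 10 ng/ml of PDGFAA. The MEF group is 1 array of embryonic fibroblasts from embryos of the same age after transduction with a mock vector, and the Leydig group is 2 arrays of cells isolated from the testes of mice aged 56 days. No strain, genotype or sex of the embryos is given in the sources used here. Whether the mock-transduced fibroblasts were moved to the same medium is not given either, so the factors and the medium cannot be told apart, and the labels do not state separate cultures or animals for the 2 arrays of a pair, so p-values measure only the spread between these arrays, which may be technical. A gene was taken as particular to iLC when the dimmer of the 2 iLC arrays lay at least 4-fold above the brightest of the other 3 arrays, or the brighter iLC array at least 4-fold below the dimmest of the other 3. Of 19084 named genes, each read by 1 probe, 92 were higher in this way (0.482% of all genes) and 17 were lower (0.0891%). These values chose the genes, so their levels and differences are given as descriptions, with no test. The distance between the iLC pair and the nearest other array is called the gap below. It was taken on the log2(intensity + 16) scale, with values below 0 set to 0, and a fold for the gap is on that scale too.

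Leydig cells make androgens from cholesterol, and cells that make or store sterols switch genes of sterol synthesis on and off through the SREBP transcription factors, which are held back when sterol is plentiful. Peptide-secreting neurons and endocrine cells store hormones such as galanin and peptide YY in vesicles, a trade that is not usual for fibroblasts. Interferon-induced genes are switched on by STAT and IRF factors in cells that sense virus or interferon, and the interleukin Il6 and chemokines such as Cxcl5 are classic outputs of stressed or activated fibroblasts.

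Facts of the whole set bear on these readings. Median intensities ran from 1111 to 1230, and the low ends differed between arrays, with 0, 435, 23, 0 and 46 values below 0 on the MEF array, the 2 iLC arrays and the 2 Leydig arrays, so a low reading in iLC is less secure than a high one. A level of 262.7, the highest of the arrays' 20th percentiles, serves below as the mark of a dim probe. The delivered factors did not read above both other groups: Gata4 read 6773 on MEF, 4127 and 3150 on iLC, and 71888 and 50891 on Leydig, Nr5a1 1265 on MEF, 1509 and 1158 on iLC, and 68030 and 44721 on Leydig, and Dmrt1 397 on MEF, 333 and 427 on iLC, and 549 and 519 on Leydig. Whether their probes lie in the delivered sequences is not given, so these readings do not check the labels. Of the Leydig markers, Insl3 and Lhcgr had no named probe here, and the 6 measured adult Leydig markers summed to 132900 and 256000 in iLC, 46760 in MEF and 358600 and 891800 in Leydig. The 19 germ cell markers summed to 1267000 on Leydig replicate 2 against 63110 on Leydig replicate 1.

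The iLC pair lay beyond all 3 other arrays far more often than it lay 4-fold beyond them. By any amount, 3362 genes were above (17.6%) and 3524 below (18.5%). At 4-fold the higher genes outnumbered the lower by 92 to 17, and the gap had a median of 2.75 among the higher and 2.31 among the lower. That balance turned without iLC replicate 2, which left 142 higher and 211 lower genes, and an offset of 1 in place of 16 gave 92 and 36. The plot of the iLC pair against the nearest other array shows the 92 genes reaching 66.7-fold and the 17 genes staying at 6.10-fold or less.

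**Figure D1:**
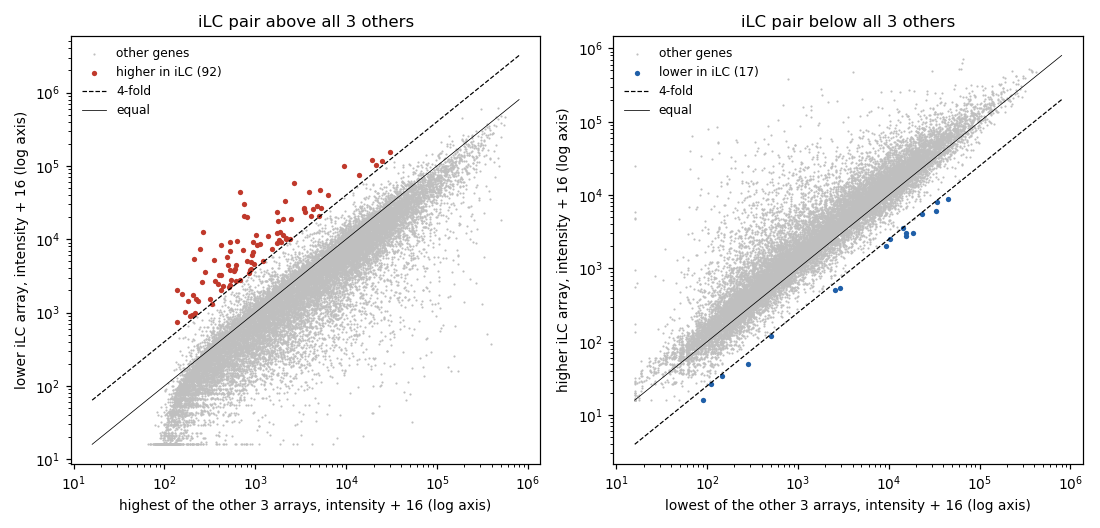
Every named gene, plotted on log axes as intensity + 16. On the left the dimmer iLC array is set against the brightest of the other 3 arrays, with the 92 higher genes in red; on the right the brighter iLC array is set against the dimmest of the others, with the 17 lower genes in blue. The dashed line marks 4-fold and the solid line equality.

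Hormone and neuropeptide genes had some of the largest gaps. Of 39 measured neuropeptide and neuronal genes, 9 were among the 92 (23.1%, against 0.482% of all genes), 23 lay above all 3 other arrays by any amount (59%, against 17.6%) and none was among the 17 lower genes. This list, like the others below, was chosen with earlier results of these data known. The shares of the lists are therefore descriptions and not a test of enrichment. Pyy, which encodes the gut hormone peptide YY, read 654 in MEF, 53158 and 44677 in iLC, and 339.5 and 319 in Leydig. Its iLC arrays were close together and 66.7-fold above the MEF array, with log2 differences of 6.18 ± 0.38 (SE) against MEF and 7.14 ± 0.31 against Leydig. Gal, the gene of galanin, gave 49852 and 32859 in iLC, against 1452 in MEF and 1424 and 2124 in Leydig; the other 3 arrays were close together, and the gap was 15.4-fold. Adcyap1, the gene of the neuropeptide PACAP, read 5694 and 8768 in iLC, 475 in MEF and 444 and 445 in Leydig, a gap of 11.6-fold. Vgf, whose product is a secreted granin-like protein of neurons and endocrine cells, read 3839 in MEF, 53826 and 43739 in iLC, and 728 and 1508 in Leydig, with a graded order in which the MEF array stood above both Leydig arrays. Cck, the gene of cholecystokinin, had the same order: it gave 40615 and 52137 in iLC, against 6346 in MEF and 196 and 372 in Leydig. Here the fibroblasts already carried a signal far above the Leydig cells, and the iLC arrays lay 6.39-fold above them. Nppc, the gene of C-type natriuretic peptide, read 3741 and 5310 in iLC, 475 in MEF and 514 and 398 in Leydig, a gap of 7.09-fold. Edn2, a vasoconstrictor peptide of the endothelin family that was on no list, read 790.1 in MEF, 19946 and 39259 in iLC, and 345 and 335 in Leydig, with log2 differences of 5.12 ± 0.50 (SE) against MEF and 6.30 ± 0.41 against Leydig.

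Genes of neuronal structure stood beside these peptides. Nefl and Nefm, the light and medium neurofilament subunits, are next to each other in the genome with no protein-coding gene between them. Nefl gave 7355 and 29258 in iLC, against 233 in MEF and 189 and 194 in Leydig, and Nefm read 20955 and 51053 in iLC, 733 in MEF and 116 and 149.7 in Leydig. The 2 iLC arrays were further apart for Nefl than for the 7 peptide genes above, with an SD of 1.41 (log2, n = 2), and the gap was 28.0-fold for Nefm. The other 3 arrays were all under the dim level for Nefl. Snap25, a protein of the vesicle fusion machinery, read 929 in MEF, 25072 and 8223 in iLC, and 518 and 1030 in Leydig. Other measured genes of the list did not reach 4-fold, and some did not share the direction. Tubb3, a neuronal tubulin, gave 9117 and 21103 in iLC, against 9952 in MEF and 10675 and 9679 in Leydig, and Stmn2, a tubulin-binding protein of growing axons, read 1933 and 1592 in iLC, 871 in MEF and 475 and 252 in Leydig, a gap of 0.86 on the log2 scale. Chgb, which encodes a core protein of secretory granules, read 219.7 in MEF, 253 and 511 in iLC, and 517 and 493 in Leydig, and Syt1, a calcium sensor of vesicle release, gave 589 and 511 in iLC, against 1211 in MEF and 1468 and 3009 in Leydig, so iLC read lowest of all for Syt1. The list's median log2 difference was 0.62 against MEF and 0.86 against Leydig, beside -0.11 and -0.03 over all genes.

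**Figure D2:**
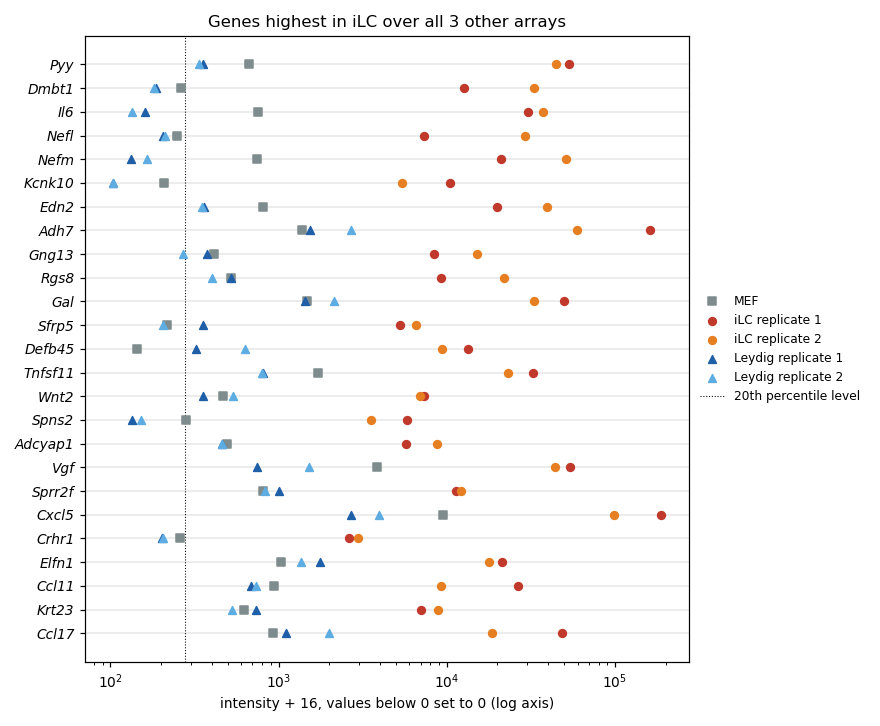
Intensity + 16 on a log axis for the 25 higher genes with the largest gaps once dim values were raised to the dotted level, predicted genes left out, 1 symbol per array: squares for MEF, circles for the 2 iLC arrays and triangles for the 2 Leydig arrays. The iLC circles stand to the right of every square and triangle, from 66.7-fold for Pyy to 9.31-fold for Ccl17, and the dotted line marks the dim level of 262.7.

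Promoters were searched for 7 motifs, among them 1 each for NR5A1 and the GATA factors; no motif of DMRT1 was searched. RefSeq promoter windows on GRCm38.p6, from 250 bases before to 50 after a start, were at hand for 63 of the 92 higher and 14 of the 17 lower genes. The NR5A1 motif CAAGGNCA, on either strand, was in 2 of the 63 higher genes (3.17%) and in 6.63% of all 14952 measured genes with a window. The GATA motif AGATAA was in 11 of the 63 (17.5%), against 10.0% of all. The cyclic AMP motif TGACGTCA was in 1 of the 63 (1.59%), against 2.76% of all. A match is a description of letters, not a binding site, and no match says only that these letters are not in this window. The windows below show the NR5A1 letters of Gal and the GATA letters of Cck, since both peptide genes are among the 92; each is 60 bases, 5′ to 3′ on the gene's strand, with the match in capitals, and the Gal match is on the opposite strand. Gal lies at chr19:3414735-3414794 (minus strand) and Cck at chr9:121495851-121495910 (minus strand).
Gal: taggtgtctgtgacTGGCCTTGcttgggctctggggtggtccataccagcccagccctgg
Cck: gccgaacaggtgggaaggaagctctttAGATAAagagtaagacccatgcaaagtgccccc

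Receptors and signalling genes for such messengers were also among the 92, named here after their values were seen. Crhr1, the receptor of corticotropin-releasing hormone, read 2618 and 2973 in iLC, 242 in MEF and 187 and 189 in Leydig, and Hcrtr1, a receptor of the orexins, read 191 in MEF, 1704 and 3435 in iLC, and 156 and 121 in Leydig. In both, the MEF and Leydig arrays all read under the dim level, so the readings stood out from near background. Ptgfr, the receptor of prostaglandin F2-alpha, gave 6942 and 4466 in iLC, against 601 in MEF and 90.3 and 62.2 in Leydig, and its second probe gave 170 on MEF, 991 and 924 on iLC, and 67.7 and 42.0 on Leydig. Agtr1a, the angiotensin II receptor, read 6415 and 5003 in iLC, 1208 in MEF and 648 and 863 in Leydig; it lay just past the threshold at 4.10-fold. Ramp3, a partner of calcitonin-type receptors, read 1119 in MEF, 11238 and 8548 in iLC, and 440.1 and 267 in Leydig. Downstream of receptors, Gng13, a G protein gamma subunit, gave 8402 and 15210 in iLC, against 399.6 in MEF and 359 and 253 in Leydig, and Rgs8, which shortens G protein signals, read 9291 and 22044 in iLC, 506 in MEF and 508 and 388 in Leydig. Pde4b, an enzyme that breaks down cyclic AMP, read 4128 in MEF, 43409 and 20880 in iLC, and 345 and 672 in Leydig, but its second probe did not follow, at 2751 on MEF, 2282 and 3342 on iLC, and 3385 and 2941 on Leydig. Kcnk10, a potassium channel, gave 10499 and 5421 in iLC, against 193 in MEF and 87.2 and 88.3 in Leydig, with the other 3 arrays all under the dim level. Kcnj2, another potassium channel, read 4195 and 2745 in iLC, 657 in MEF and 214 and 139 in Leydig, and Gucy1b2, a guanylate cyclase subunit, read 187 in MEF, 918 and 2686 in iLC, and 137 and 174 in Leydig. The iLC pair was above the other 3 arrays in both, but Kcnj2 did not reach 4-fold with an offset of 64 or median centring. Gucy1b2, whose other 3 arrays were all under the dim level, did not with an offset of 64 or with dim values raised to that level.

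Cytokine and chemokine genes made up a further block. Of 32 measured, 4 were among the 92 (12.5%, against 0.482%), 17 lay above all 3 other arrays (53.1%, against 17.6%) and 3 below (9.38%, against 18.5%). Il6, the gene of interleukin 6, gave 30289 and 37346 in iLC, against 743 in MEF and 145 and 118 in Leydig. The dimmer iLC array exceeded the MEF array by 39.9-fold, and the log2 differences were 5.47 ± 0.39 (SE) against MEF and 7.84 ± 0.32 against Leydig. Tnfsf11, the osteoclast-activating ligand RANKL, read 32464 and 23150 in iLC, 1711 in MEF and 788 and 784 in Leydig, a gap of 13.4-fold. Cxcl5, a chemokine that draws neutrophils, read 9484 in MEF, 189210 and 98380 in iLC, and 2692 and 3935 in Leydig, and Ccl11, the eosinophil chemokine eotaxin, gave 26498 and 9210 in iLC, against 928 in MEF and 669 and 715 in Leydig. Ccl11 had an SD of 1.08 between its iLC arrays (log2, n = 2) and was still 9.77-fold above the nearest other array. Ccl17, a T cell chemokine that was on no list, read 48780 and 18639 in iLC, 907 in MEF and 1088 and 1988 in Leydig. Others of the list stood above all 3 arrays by less than 4-fold. Il1a, an alarm cytokine, read 856 in MEF, 5734 and 5956 in iLC, and 618 and 1507 in Leydig, and Il11, a cytokine of the Il6 family, gave 10832 and 20420 in iLC, against 3511 in MEF and 2636 and 2589 in Leydig. Cxcl1, the neutrophil chemokine, read 42279 and 45389 in iLC, 1613 in MEF and 9404 and 22186 in Leydig, where the Leydig arrays were also high. Ccl3 and Ccl4, chemokines of macrophages, went the other way: Ccl3 read 4965 in MEF, 333 and 602 in iLC, and 2312 and 2540 in Leydig, and Ccl4 gave 238 and 799.8 in iLC, against 5876 in MEF and 2827 and 2552 in Leydig.

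The promoter of Il6 carries GGGA, any 1 base and TTTCC, known as a binding motif of NF-kappa B and searched on both strands. That motif was in 3 of the 63 higher genes with a window (4.76%), namely Il6, Krt23 and Clec2l, in 0.528% of all measured genes with a window, and in 0 of the 14 lower genes. The 3 windows are shown because they are all the matches among the 92; Clec2l and Krt23 match on the opposite strand. Il6 lies at chr5:30013045-30013104 (plus strand), Krt23 at chr11:99493139-99493198 (minus strand) and Clec2l at chr6:38662839-38662898 (plus strand). Clec2l, a lectin-like gene, read 6071 and 8764 in iLC, 666 in MEF and 899 and 458 in Leydig, and its second probe gave 286 on MEF, 2943 and 3441 on iLC, and 278 and 208 on Leydig.
Il6: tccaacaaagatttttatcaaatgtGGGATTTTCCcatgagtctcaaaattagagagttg
Krt23: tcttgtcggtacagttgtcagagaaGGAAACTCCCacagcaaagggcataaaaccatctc
Clec2l: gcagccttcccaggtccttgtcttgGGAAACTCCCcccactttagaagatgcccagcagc

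Surface proteins of immune and vessel cells were also among the 92. Olr1, a receptor of oxidised LDL, read 3440 in MEF, 26616 and 33767 in iLC, and 68.7 and 139 in Leydig. Thbd, the thrombin-binding protein thrombomodulin of vessel walls, gave 116275 and 155060 in iLC, against 24543 in MEF and 10566 and 8354 in Leydig, and Cd55, which protects cells from complement, read 23247 and 12361 in iLC, 1685 in MEF and 1844 and 410.3 in Leydig. Itgax, the integrin CD11c of dendritic cells, read 560.1 in MEF, 4912 and 3621 in iLC, and 377 and -26.9 in Leydig, with 1 Leydig array below 0. None of the 20 measured macrophage and leukocyte markers lay above all 3 other arrays (17.6% of all genes did), and 3 lay below (15%, against 18.5%). Their summed level was 79830 and 162400 in iLC, 349700 in MEF and 56850 and 66100 in Leydig, and their part in the surface protein readings was not tested. Of the 11 endothelial markers 3 lay above all 3 arrays (27.3%, against 17.6%), none by 4-fold, and 1 lay below (9.09%, against 18.5%). Their sums were 31740 and 34830 in iLC, 26560 in MEF and 20590 to 25360 in Leydig.

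Secreted regulators of Wnt and BMP signals were among the 92 as well. Of 31 measured Wnt pathway genes 3 were among the 92 (9.68%, against 0.482% of all genes) and 10 lay above all 3 other arrays (32.3%, against 17.6%), with 0 below. Wnt2, a ligand, gave 7332 and 6959 in iLC, against 455 in MEF and 337 and 517 in Leydig, and its iLC arrays differed by an SD of only 0.05 (log2, n = 2). Sfrp5 and Sfrp1 encode soluble proteins that bind Wnt ligands. Sfrp5 read 5265 and 6556 in iLC, 201 in MEF and 337 and 189 in Leydig, and Sfrp1 read 19322 in MEF, 206024 and 120698 in iLC, and 16188 and 5039 in Leydig. Sfrp4, another soluble Wnt binder, gave 24686 and 10886 in iLC, against 268 in MEF and 5410 and 1107 in Leydig. Its iLC pair was above all others by less than 4-fold, with Leydig replicate 1 the nearest. Axin2, a gene that reports active Wnt signalling, read 4221 and 5109 in iLC, 3512 in MEF and 4824 and 5408 in Leydig, with iLC inside the range of the other arrays. Among growth factor genes, Gdf10, of the BMP family, read 2373 in MEF, 18274 and 9946 in iLC, and 1346 and 1589 in Leydig, and Bmper, a secreted BMP-binding protein, gave 74145 and 96465 in iLC, against 13748 in MEF and 2041 and 1678 in Leydig. Fgf2, a fibroblast growth factor, read 3420 and 4581 in iLC, 827 in MEF and 629 and 504 in Leydig, just past the threshold. Pappa2, a protease that cuts IGF-binding proteins, read 840.1 in MEF, 3824 and 4675 in iLC, and 848 and 542 in Leydig.

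Genes of the skin barrier and of mucosal surfaces were also among the 92; the group was formed after its values were seen, and of it Dmbt1, Defb45 and Perp were on lists. Of 21 measured mucosal and secreted defence genes, Dmbt1 and Defb45, the latter also on the Sertoli list, met the rule (9.52%, against 0.482%), 6 lay above all 3 other arrays (28.6%, against 17.6%) and 2 below (9.52%, against 18.5%). Sprr2f and Sprr2g, small proline-rich proteins of the cornified envelope, were both present. Sprr2f gave 11370 and 12103 in iLC, against 789 in MEF and 991 and 818 in Leydig, and Sprr2g read 18843 and 34538 in iLC, 2442 in MEF and 1134 and 765 in Leydig. Ivl, the gene of involucrin, another cornified envelope protein, read 917 in MEF, 6723 and 14547 in iLC, and 399 and 328 in Leydig, and its second probe gave 960 on MEF, 5561 and 19308 on iLC, and 202 and 166 on Leydig. Sprr2f and Ivl are in the same gene neighbourhood, with 7 protein-coding genes between them. Krt23, a keratin, gave 7062 and 8840 in iLC, against 611 in MEF and 719 and 516 in Leydig; Aloxe3, a lipoxygenase of the skin barrier, read 4456 and 4498 in iLC, 488 in MEF and 139.5 and 298 in Leydig. Perp, a desmosome-linked p53 target, read 1351 in MEF, 11187 and 24871 in iLC, and 266 and 407 in Leydig. Dmbt1, a mucosal scavenger protein, gave 12714 and 32837 in iLC, against 247 in MEF and 171 and 166 in Leydig, with the other 3 arrays all under the dim level. Defb45, a defensin-like gene, read 13316 and 9348 in iLC, 128 in MEF and 307 and 615 in Leydig. Spint1, a protease inhibitor of epithelia, read 503 in MEF, 2199 and 6649 in iLC, and 461 and 329.6 in Leydig. That both iLC arrays lay clear of the other 3 for each of these genes follows from the rule. Spint1 did not reach 4-fold with an offset of 64. Of 18 measured general epithelial markers, 7 lay above all 3 other arrays (38.9%, against 17.6%), none by 4-fold, and 2 lay below (11.1%, against 18.5%). Their summed level was 36680 and 61610 in iLC against 50050 in MEF and 24200 to 27330 in Leydig.

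AP-1, the FOS and JUN family, is a known regulator of involucrin and of small proline-rich genes. Its motif TGANTCA was in 10 of the 63 higher genes with a window (15.9%), against 7.87% of all, and in 0 of 14 lower genes. The windows of Ivl and Sprr2f are given because these 2 neighbours both held it. Ivl lies at chr3:92573819-92573878 (minus strand) and Sprr2f at chr3:92364963-92365022 (plus strand).
Ivl: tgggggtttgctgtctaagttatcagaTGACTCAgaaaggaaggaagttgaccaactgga
Sprr2f: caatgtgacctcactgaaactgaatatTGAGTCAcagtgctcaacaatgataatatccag

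A few genes of steroid, retinoid and amino acid metabolism were among the 92. Of 9 genes measured on the list of steroid hormone synthesis 0 met the rule and 3 lay above all 3 other arrays (33.3%, against 17.6% of all genes). Cyp11b1, the 11-beta-hydroxylase of the adrenal cortex, which was on the adrenal list, met it: it gave 13429 and 12026 in iLC, against 275 in MEF and 322 and 1730 in Leydig. The 2 Leydig arrays were far apart for this gene, with an SD of 1.67 (log2, n = 2), and the gap to the nearer one was 6.90-fold. Of 8 measured adrenal and fetal Leydig genes, 5 lay above all 3 other arrays (62.5%, against 17.6%). In retinoid metabolism, Adh7, an alcohol dehydrogenase that oxidises retinol, read 161970 and 59148 in iLC, 1361 in MEF and 1525 and 2678 in Leydig, and Crabp2, which carries retinoic acid to its receptor, read 30114 in MEF, 281173 and 153442 in iLC, and 2137 and 1796 in Leydig. Of 18 measured dehydrogenase and retinoid carrier genes these 2 met the rule (11.1%, against 0.482%) and 7 lay above all 3 other arrays (38.9%, against 17.6%). Cth, which makes cysteine, gave 25907 and 42834 in iLC, against 3415 in MEF and 1314 and 1677 in Leydig, and Nat8l, which makes N-acetylaspartate, read 5303 and 3212 in iLC, 378 in MEF and 266 and 285 in Leydig. Vdr, the vitamin D receptor, read 2152 in MEF, 33475 and 10429 in iLC, and 1367 and 602 in Leydig. Its second probe had the same order of groups, though not of the 2 Leydig arrays, at 1712 on MEF, 26123 and 8204 on iLC, and 435 and 1082 on Leydig. Vdr was the 1 nuclear receptor of 36 measured that met the rule.

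Stress and growth arrest genes often read above all 3 other arrays, mostly by less than 4-fold. Of 17 measured p53 and senescence genes, 12 lay above all 3 other arrays (70.6%, against 17.6%), with Perp past 4-fold, and 0 lay below. Trib3, a target of the integrated stress response, gave 31337 and 26384 in iLC, against 5288 in MEF and 2630 and 2726 in Leydig, the 1 gene of 21 measured in that list to meet the rule, with 9 above all 3 arrays (42.9%, against 17.6%). Gadd45a, a growth arrest gene that was on no list, read 101261 and 102953 in iLC, 10206 in MEF and 10602 and 21421 in Leydig, with an SD of 0.02 between the iLC arrays (log2, n = 2). Mapk13, a p38 kinase, read 5162 in MEF, 48296 and 46675 in iLC, and 911 and 947 in Leydig. Of 25 measured xenobiotic and antioxidant genes 10 lay above all 3 arrays (40%, against 17.6%) and none by 4-fold. Cell division genes gave no member in either direction: of 42 measured, 6 lay below all 3 other arrays (14.3%, against 18.5%). Their sums were 946100 in MEF, 138000 and 119100 in iLC and 105700 and 86820 in Leydig. The list's median log2 difference was -3.34 against MEF and 0.35 against Leydig, so iLC read far below MEF but not below Leydig. DNA replication genes lay below all 3 arrays in 13 of 29 cases (44.8%, against 18.5%), none by 4-fold.

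Further genes of the 92 fall in no group above. They number 36, among them Clec2l, given above, Spns2, a transporter of the lipid messenger S1P, at 5781 and 3553 in iLC, 266 in MEF and 118 and 137 in Leydig; Elfn1, a synaptic adhesion protein, at 21233 and 17720 in iLC, 1018 in MEF and 1747 and 1350 in Leydig; and Vsig8, at 4749 and 1796 in iLC, 138 in MEF and 59.5 and 33.6 in Leydig. The other arrays were all under the dim level for Vsig8, and MEF was just above it for Spns2. Jam2 and Cxadr, related adhesion proteins of cell junctions, lie with 6 protein-coding genes between them. Jam2 gave 9630 and 15052 in iLC, against 1619 in MEF and 1796 and 1238 in Leydig, and Cxadr, counted with the epithelial genes, read 25664 and 30869 in iLC, 4318 in MEF and 1398 and 1481 in Leydig. Tnpo1 and Tnks are active in most cells, but on these probes Leydig replicate 2 read under the dim level for both. Tnpo1, a nuclear import receptor, read 429 in MEF, 2257 and 2739 in iLC, and 288 and 218 in Leydig, and Tnks, a poly-ADP-ribose polymerase, gave 3104 and 2757 in iLC, against 529 in MEF and 357 and 252 in Leydig. Lratd1 had the narrowest gap, at the threshold itself. The others were Acaa1b, Adamts16, Baalc, Bpifc, Cadm3, Camk2n2, Exoc3l4, Fam189a2, Folh1, Got1l1, Hid1, Lrrc20, Lrrn2, Nrip3, Plac1, Prrt3, Prss30, Ptprv, Sgtb, Sp6, Stac2, Svop, Sytl1, Thsd4, Tmem179, Tmem184a and the predicted genes Gm11545 and 4930486L24Rik.

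Genes of sterol synthesis were among the 17 lower genes. Of 15 measured genes of cholesterol synthesis and uptake, 4 were among the 17 (26.7%, against 0.0891% of all genes), and 14 lay below all 3 other arrays (93.3%, against 18.5%). Insig1, the protein that holds SREBP back when sterol is plentiful and is itself an SREBP target, read 8699 and 7136 in iLC, 45184 in MEF and 166211 and 60609 in Leydig. The brighter iLC array was 5.19-fold below the MEF array, and the Leydig arrays were highest. Stard4, a cholesterol carrier, read 2883 in MEF, 530.3 and 345 in iLC, and 5332 and 5947 in Leydig; Idi1, an enzyme of isoprenoid synthesis, gave 5452 and 4571 in iLC, against 23106 in MEF and 92830 and 54784 in Leydig; Cyp51, the lanosterol demethylase, read 3492 and 2002 in iLC, 14346 in MEF and 69773 and 51588 in Leydig. Cyp51 was lower by less than 4-fold on its second probe, at 1585 on MEF, 606 and 534 on iLC, and 8992 and 4378 on Leydig. Other enzymes of the pathway kept the order without reaching 4-fold. Fdft1, squalene synthase, read 37697 in MEF, 13024 and 15251 in iLC, and 138892 and 84327 in Leydig, and Sc5d, a late enzyme, gave 1892 and 2582 in iLC, against 7132 in MEF and 23710 and 24169 in Leydig. Srebf2, the transcription factor itself, read 1780 and 3817 in iLC, 7175 in MEF and 7556 and 10595 in Leydig. Dhcr7, the last reductase of the pathway, was the exception and read 3695 in MEF, 8316 and 7482 in iLC, and 19731 and 24643 in Leydig, with iLC between MEF and Leydig. The list's median log2 difference was -1.42 against MEF and -2.75 against Leydig. By limma, 11 of the 15 were lower in iLC than in Leydig (5.65% of all genes were) and 0 were called against MEF (0.283% were called lower). The SREBP motif TCACNCCAC was in 0 of the 14 lower genes with a window and in 1.44% of all. Of the 4 sterol members, Cyp51, Idi1 and Insig1 had a window and Stard4 had none. With a motif this rare and so few windows, the 0 says little about these genes.

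**Figure D3:**
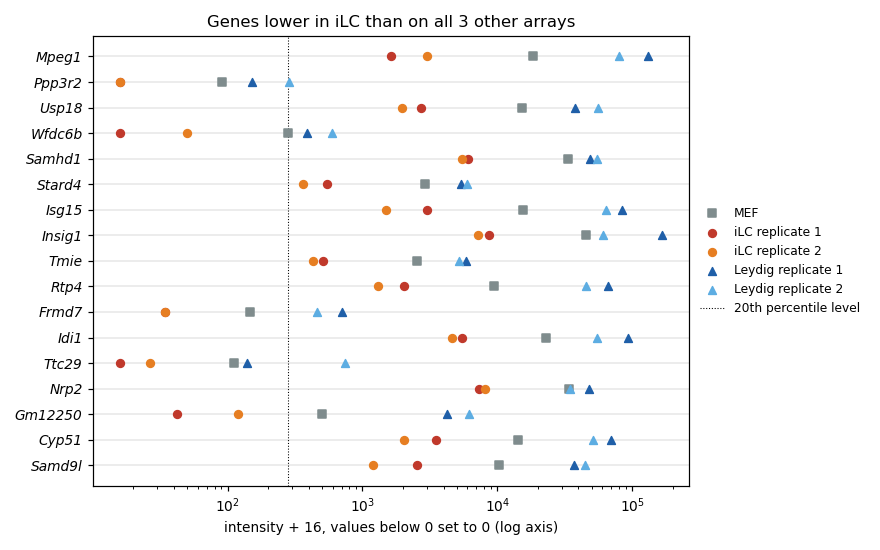
Intensity + 16 on a log axis for the 17 genes lower in iLC, 1 symbol per array as in the key. The order from left to right is iLC, MEF and Leydig in all 17, and for Ppp3r2, Frmd7, Ttc29, Wfdc6b and Gm12250 both iLC arrays lie left of the dotted dim level of 262.7.

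Interferon-induced genes were the other group among the lower genes. Of 25 measured, 2 were among the 17 (8%, against 0.0891%), 19 lay below all 3 other arrays (76%, against 18.5%) and 0 above. Isg15, a ubiquitin-like interferon product, gave 2986 and 1483 in iLC, against 15566 in MEF and 83513 and 64362 in Leydig, and Usp18, the protease that removes it, read 2714 and 1957 in iLC, 15318 in MEF and 37616 and 55658 in Leydig. Ifit1, an antiviral RNA-binding protein, fell just short of the threshold at 3.89-fold: it read 8565 in MEF, 2187 and 1961 in iLC, and 75614 and 81039 in Leydig. Related genes outside the list, named after their values were seen, followed. Rtp4 gave 2017 and 1292 in iLC, against 9410 in MEF and 66727 and 45449 in Leydig, Samd9l read 2506 and 1185 in iLC, 10248 in MEF and 37249 and 44958 in Leydig, and Samhd1, which limits the nucleotides viruses need, read 33221 in MEF, 6100 and 5482 in iLC, and 48498 and 55288 in Leydig. Gm12250, an interferon-inducible GTPase, gave 25.9 and 104 in iLC, against 489 in MEF and 4203 and 6104 in Leydig, with both iLC arrays under the dim level. The Leydig arrays were above the MEF array for all 6 of these lower genes. By limma 21 of the 25 list genes were lower in iLC than in Leydig (5.65% of all genes were) and 1, Ifi27l2b, was lower than in MEF (0.283%). Rsad2 and Oasl1 had log2 differences of 0.15 and -0.03 against MEF and -4.72 and -3.56 against Leydig. Rtp4 was lower by less than 4-fold on its second probe, at 1400 on MEF, 967 and 892 on iLC, and 7454 and 6163 on Leydig.

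The ISRE letters, GAAA, any 2 bases and GAAA on either strand, which STAT and IRF factors are known to bind, were in 3 of the 14 lower genes with a window (21.4%) and 3.64% of all measured genes. Isg15 held 3 overlapping matches, Gm12250 2 and Frmd7 1. The Isg15 window is given, at chr4:156200862-156200921 (minus strand), because it holds the most; its capitals cover the 3 overlapping matches.
Isg15: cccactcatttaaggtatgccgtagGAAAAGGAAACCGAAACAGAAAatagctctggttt

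The remaining lower genes were Mpeg1, Tmie, Nrp2 and 4 dim ones. Mpeg1, a pore-forming protein of macrophages, read 1612 and 3004 in iLC, 18414 in MEF and 131884 and 79840 in Leydig, and had the largest gap downwards at 6.10-fold. Its second probe hardly followed, at 915 on MEF, 650 and 897 on iLC, and 2975 and 1558 on Leydig. The macrophage and leukocyte list did not share its order: the list's sum was highest on the MEF array and lowest on the Leydig arrays, whereas Mpeg1 was highest on the Leydig arrays; the part of macrophages in this reading was not tested. Tmie, a protein of hair cell channels, read 2533 in MEF, 498 and 417 in iLC, and 5817 and 5218 in Leydig. Nrp2, a receptor of semaphorins and VEGF, gave 7311 and 8118 in iLC, against 34187 in MEF and 48042 and 34893 in Leydig. Its second probe, at 548 on MEF, 205 and 349 on iLC, and 235 and 345 on Leydig, had iLC below MEF but not apart from Leydig. Ppp3r2, Wfdc6b, Frmd7 and Ttc29 read between -31.5 and 34.1 on the iLC arrays and from 74.6 to 726 on the others. Their gaps rest on the low ends of the arrays, and with values under 262.7 set to that level none of the 4 met the rule, nor did Gm12250.

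**Figure D4:**
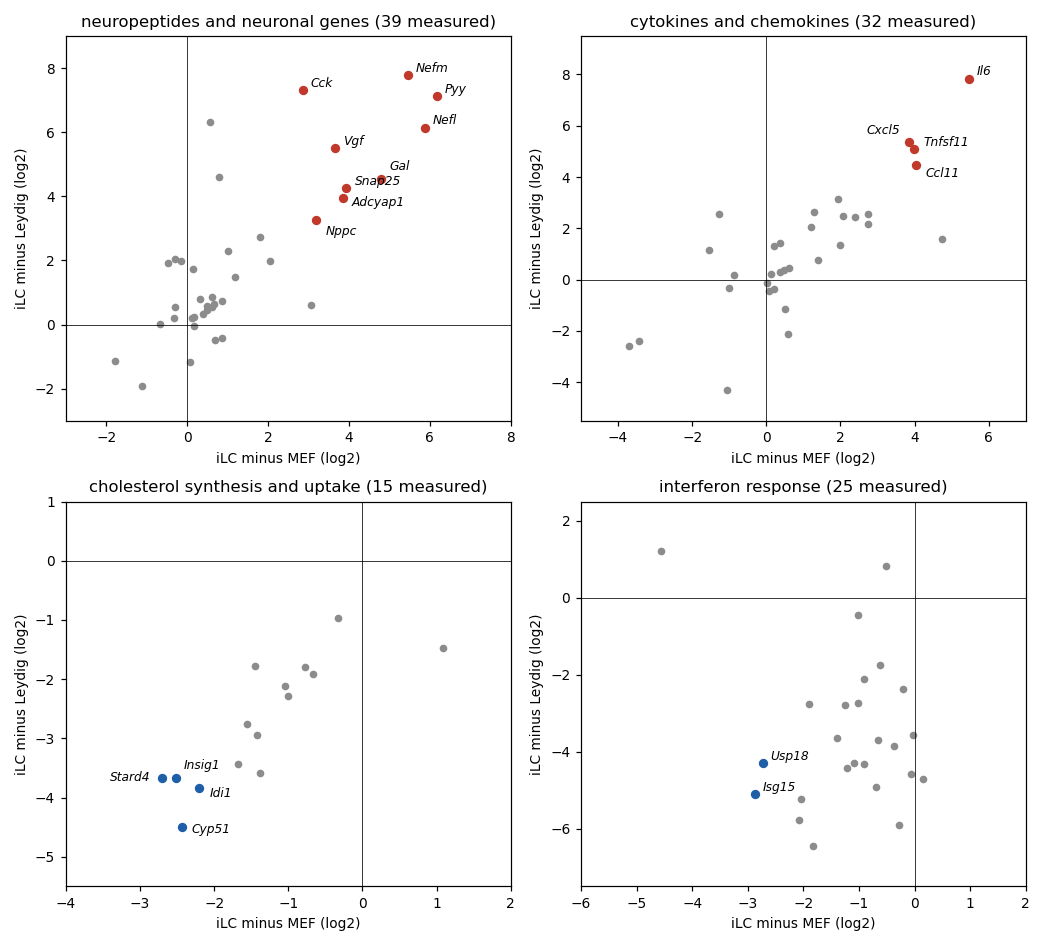
Log2 difference of iLC from MEF (horizontal) and from Leydig (vertical) for the measured genes of 4 lists, with members of the 92 or 17 coloured and named. The same iLC arrays enter both axes. Neuropeptide and cytokine genes spread into the upper right corner, and 14 of the 15 sterol genes lie in the lower left.

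The order of the MEF and Leydig arrays among the 109 genes is given as a description, since the rule used the nearest of these arrays. For all 17 lower genes the MEF array lay below both Leydig arrays (32.9% of all genes did), so the order was iLC, MEF, Leydig throughout. For 62 of the 92 higher genes the MEF array lay above both Leydig arrays (67.4%, against 44.1% of all genes). It lay below both for 13 (14.1%, against 32.9%) and between them for 17, as it did for 4378 of all 19084 genes. In 9 of the 92 (9.78%, against 3.48% of all genes), Bmper, Cck, Crabp2, Il6, Mapk13, Nefm, Olr1, Pde4b and Ptgfr, the MEF array was at least 4-fold above both Leydig arrays. In 48 the other 3 arrays lay within 2-fold of each other (52.2%, against 62.2% of all genes). In 15 all 3 were under the dim level, which was not counted over all genes. The iLC arrays differed from each other by a median of 0.59 (log2) among the higher genes and 0.60 among the lower, against 0.37 over all genes. Replicate 1 was the higher of the pair in 45 of the 92 (48.9%, against 37.7% of all genes).

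Second probes give a reading that did not choose the genes, on the same arrays and RNA. Of 7 higher genes with another named probe, 6 had both iLC arrays above all 3 others on it, each by at least 4-fold (Clec2l, Ivl, Ptgfr, Ptprv, Rgs8 and Vdr), and Pde4b did not. Over all 2792 such probes of the table, 19.3% had the iLC pair above and 16 did so by 4-fold. Of 4 lower genes with another probe, 3 had both iLC arrays below all others and 0 by 4-fold, against 21.6% of the 2792 below. The gaps of these 3 were 1.36 for Cyp51, 0.53 for Rtp4 and only 0.03 for Mpeg1 (log2), and Nrp2 was not below. Of the 4547 probes with no gene name, 7 were higher (0.154%) and 2 lower (0.044%) by the rule.

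A test was also run on every gene, asking whether iLC differed from MEF and from Leydig in the same direction, with limma at a Benjamini-Hochberg adjusted p under 0.05 in each comparison. It called 33 genes higher in iLC than in both (0.173%) and 4 lower (0.021%); without adjustment 560 and 652 had p under 0.05 in both. The counts moved with the scale, to 2 and 2 with an offset of 1, 3 and 0 with dim values raised to the dim level, 1 and 0 with the arrays' low ends aligned, and 96 and 55 with median centring. Of the 33, 32 were among the 92, and since the same values chose the 92, this overlap is a description. All 92 were called higher than Leydig (5.72% of all genes were) and 32 higher than MEF (0.278%). Of the 17 lower genes all were called lower than Leydig (5.65% of all genes were) and 0 lower than MEF (0.283%). These counts too are descriptions, since the same values chose the 92 and the 17. The 1 call outside the 92 was Nkain4, a sodium pump-associated protein, which read 115247 and 112352 in iLC, 3549 in MEF and 25717 and 33236 in Leydig, differing by 5.00 ± 0.39 (SE, limma adjusted p = 0.0241) from MEF and 1.96 ± 0.32 (limma adjusted p = 0.0134) from Leydig. The 4 lower calls were all under 4-fold: Ccl3, the macrophage gene Slamf9, the B cell and macrophage gene Cd72 and Hells, a chromatin remodeller of dividing cells. Slamf9 read 4457 in MEF, 564 and 438 in iLC, and 1909 and 1867 in Leydig, Cd72 gave 673 and 998 in iLC, against 8788 in MEF and 3154 and 3550 in Leydig, and Hells read 1708 and 1544 in iLC, 14301 in MEF and 5226 and 3838 in Leydig, with differences for Hells of -3.13 ± 0.40 (SE, limma adjusted p = 0.0402) from MEF and -1.45 ± 0.33 (limma adjusted p = 0.0392) from Leydig. With any 1 of the 4 iLC and Leydig arrays left out, limma called 0 genes in both comparisons, at 1 residual degree of freedom, with 403 to 527 higher and 383 to 985 lower at an unadjusted p under 0.05. The spread of the MEF group, with 1 array, was taken from the pairs.

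The threshold passed through a continuum. Just inside it on the higher side lay Lratd1, Fgf2 at 4.08-fold and Agtr1a at 4.10-fold, and just outside lay Procr at 3.90-fold, Cthrc1 at 3.88-fold and Lrrc3b at 3.79-fold. On the lower side Samd9l at 4.07-fold, Cyp51 at 4.09-fold and Gm12250 at 4.20-fold were just inside, and Col6a3 at 3.96-fold, Hdac9 at 3.94-fold and Ifit1 at 3.89-fold just outside. Under 8 alternatives of scale, offset, filter, floor and probe choice that kept all 5 arrays, 78 of the 92 higher genes and 8 of the 17 lower genes met the rule every time. Leaving out an array could not remove a gene, since it can only widen the gap.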

How the data were processed

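Per the labels' protocols, RNA from each of the 5 samples was copied into amplified RNA, dyed with Cy5 and read on its own array. Per the values, the deposited table holds probe intensities on a linear scale as processed by the authors; their background subtraction and scaling were not stated in what was read here. Of 26423 probes 21876 had 1 gene symbol in the platform annotation, and 0 had several; all 19036 genes found in the RefSeq gene table (GRCm38.p6, used for names and neighbours) had the same symbol there. The probe with the highest mean stood for each of 19084 genes. Values below 0 were set to 0, 16 was added and log2 taken. The iLC pair was then compared with the other 3 arrays by the rule, and limma 3.58.1 in R 4.3.3 (lmFit, eBayes, 1 mean per group, 2 residual and 4.21 prior degrees of freedom, two-sided) was fitted to all genes and tested on simulated data. A floor was the highest of the 5 arrays' 20th percentiles, 262.7.

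Members and 39 gene lists were chosen with earlier results of these data known; the histone list had 0 measured genes. Named genes are the 3 factors, the 25 largest gaps in each direction above the floor, list genes that met the rule, and 3 on each side of the threshold; others are named after their values were seen. Promoter windows came from RefSeq (GRCm38.p6) and motifs were chosen by hand with earlier results known. A replicate number gave no pairing: deviations of same-numbered iLC and Leydig arrays correlated at 0.0557. Precision is limited by having 5 arrays. 0 columns belonged to no sample.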

Additional observations from a re-analysis of the deposited data

How the results depend on the processing

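With an offset of 1 in place of 16 the rule gave 92 higher and 36 lower genes, the 17 lower genes among them. Between 85 and 109 higher genes and 12 to 21 lower genes came from an offset of 64, a filter on dim genes, the floor, median centring, quantile normalization, aligned low ends and the mean of a gene's probes. A threshold of 2-fold gave 364 higher and 295 lower genes and one of 8-fold 32 and 0. Requiring both iLC arrays, or all 3 others, to lie 4-fold over the floor, chosen after seeing the data, left 87 and 12. Leaving out one iLC or Leydig array gave 107 to 170 higher genes and 22 to 211 lower genes; without iLC replicate 2, the lower count was 211, with the array of 435 values below 0 as the only one left. The limma calls in both comparisons were 33 higher and 4 lower. They became 2 and 2 with an offset of 1, 76 and 23 with 64, 70 and 17 with the filter, 3 and 0 with the floor, 96 and 55 with median centring, 98 and 36 with quantile normalization, and 1 and 0 with aligned low ends; the cause was not tested. Without any 1 of the iLC or Leydig arrays they ranged from 0 to 0. With a replicate block, in which the 2 numbers share no stated culture or animal, they were 257 and 292. That fit had 1 residual and infinite prior degrees of freedom, so every gene was given the same variance. Of the listed groups, neuropeptide genes among the higher stayed at 9 to 11, cytokines at 4 to 7 (7 without Leydig replicate 2), Wnt genes at 3 to 4, sterol genes among the lower at 3 to 5 and interferon genes at 2 to 5 (5 without iLC replicate 1, 4 without iLC replicate 2). The gap of Ppp3r2 was -0.23 after quantile normalization.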
